A study of Drosophila melanogaster with 8 samples.

Results

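The genes described here encode proteins that male flies make in the glands next to the testis and pass to the female in the ejaculate. Membership was set by a rule on names: every gene whose current FlyBase symbol starts with Acp or Sfp followed by a digit, or with Ebp. The group was chosen with earlier results of these data known. The rule takes in 50 genes, of which 35 had a row among the 14256 genes of the count table and 15 were not analysed here. The 35 were 13 Acp genes (accessory gland proteins), 18 Sfp genes (seminal fluid proteins), 3 Ebp genes (ejaculatory bulb proteins) and *Acp1*. In *Acp1* the same letters stand for adult cuticle protein, so this gene entered by its name and not by its tissue.

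In *Drosophila*, seminal fluid is secreted mainly by the paired accessory glands, the ejaculatory duct and the ejaculatory bulb. The accessory glands and the testes open into the ejaculatory duct, and the bulb lies further along it. The secreted proteins are known for their effects in the mated female, where they take part in sperm storage, egg laying and the forming of the mating plug. A testis cut out of the abdomen carries a stretch of the neighbouring tract with it or not depending on the dissection, so transcripts of these genes in a testis library can serve as a gauge of RNA from the adjacent glands. In bulk RNA of this kind, gland cells carried along cannot be told apart from expression of the same genes within the testis, and fewer cells of a type cannot be told apart from less RNA per cell.

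RNA-seq was performed on whole testes of adult *Drosophila melanogaster* males 5 days old, with 2 libraries of *Tj-Gal4* as controls and 2 libraries labelled *Tj>E(Pc) shRNA*, from males with 1 copy each of the driver and of *UAS-E(Pc) shRNA*. The driver *Tj-Gal4* is shared by both genotypes. It drives expression in somatic cells of the testis, the cyst cells that enclose the germline and, by the study, the hub cells too. The second genotype also carries a short hairpin RNA against *E(Pc)*, which encodes a chromatin protein. Each library came from 1 pair of testes, so it stands for 1 dissection. The comparison asks whether transcripts of seminal fluid and gland genes were detected in these libraries, and whether their levels differed between the genotypes.

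Library totals ranged from 3307767 counts (control replicate 1) to 6251181 (*Tj>E(Pc) shRNA* replicate 1). The targeted gene, *E(Pc)*, had 854 and 1187 counts in the controls and 2685 and 1235 in the other libraries. In CPM, which is counts per 1000000 counts with library sizes scaled by edgeR's TMM factors, the mean ± SD was 275 ± 1.64 in controls and 372 ± 47.6 in the other libraries (n = 2 each), with a log2 fold change of 0.44 (SE 0.18, edgeR adjusted p = 0.083). The *E(Pc)* mRNA of whole testes was thus not lower where the label says knockdown. The shRNA is driven in somatic cells, and the study saw tagged E(Pc) protein in germ cells as well as cyst cells. Under RNAi with this driver it reported a much weaker tagged signal in cyst cells. Whole-testis mRNA does not show the level within cyst cells. The libraries with the knockdown label are called shRNA-labelled below, and every direction refers to the label. Testis germline markers were plentiful in every library, with the 8 genes of a fixed list summing to between 1138 and 1633 CPM.

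Most seminal fluid and gland genes were close to or at 0 in these testes. Of the 35 genes, 12 and 16 had at least 1 count in the controls and 23 and 21 in the shRNA-labelled libraries, which is 34.3, 45.7, 65.7 and 60.0% of them. Over all genes of the table the corresponding shares were 90.6, 92.7, 95.6 and 91.5%. The deepest library was shRNA-labelled replicate 1. With each count scaled to the depth of the shallowest library, 12, 11, 15 and 14 genes had a scaled count of at least 1. Every gene with 1 count in a deeper library falls below 1 by this scaling. These are therefore not the numbers that would be detected at that depth, and the part of depth in the detection was not tested. With at least 4 counts required, 6, 8, 9 and 7 of the 35 genes were detected, and 6, 6, 7 and 7 had a scaled count of at least 4. In the order used throughout, controls first, the level that 3 counts represent was 0.907, 0.702, 0.480 and 0.813 CPM, here relative to the library total without TMM factors. Below that level a gene at 0 was not detectable at this depth, and it is not shown to be absent.

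Counts were concentrated in a few genes. The 35 genes together had 2710 counts over the 4 libraries. *EbpIII* alone held 42.4% of them and *Acp36DE* held 34.1%, followed by *Ebp* with 6.01%, *Sfp26Ad* with 5.72%, *Acp95EF* with 4.87% and *Sfp24F* with 3.21%. These 6 genes passed edgeR's filter on low counts and held 96.3% of the counts. The other 29 genes held 101 counts, or 3.73%. The lowest count in any library of a gene that passed was 13 and the highest count of a gene that did not pass was 9. The 6 genes therefore had counts in both genotypes and did not pass through 1 genotype alone.

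**Figure D1:**
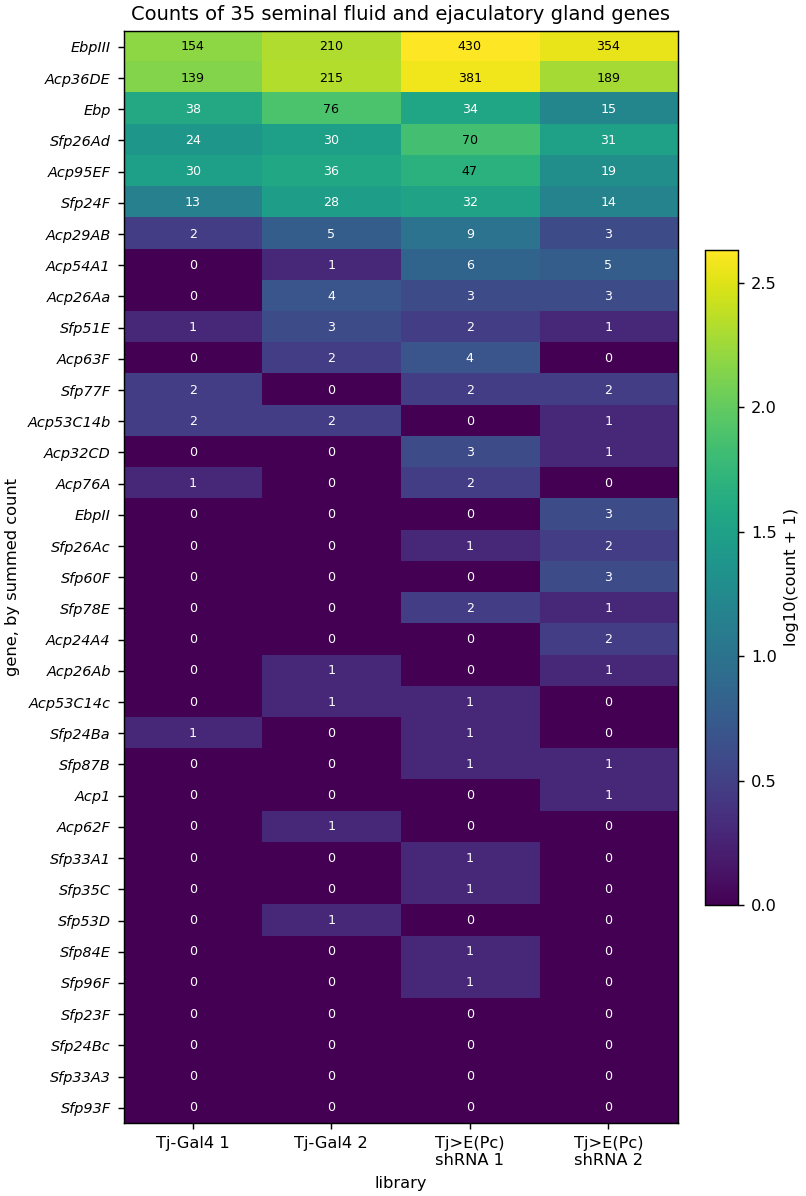
Counts of each of the 35 genes (rows, ordered by summed count) in each of the 4 libraries (columns), printed in the cells and shaded by log10(count + 1). The 6 rows at the top hold between 13 and 430 counts in every library, and no cell below them exceeds 9.

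Taken as 1 group, the 35 genes made up a very small share of the counts. The highest value of any gene in any library was 0.965 counts per base, so shares of counts need not equal shares of RNA. They had 407 and 616 counts in the controls and 1035 and 652 in the shRNA-labelled libraries. As a share of all counts this was 0.0123% (95% exact binomial interval 0.0111 to 0.0136) and 0.0144% (0.0133 to 0.0156) in the controls. It was 0.0166% (0.0156 to 0.0176) and 0.0177% (0.0163 to 0.0191) in the shRNA-labelled libraries. Both of these libraries lay above both controls, and the intervals of control replicate 2 and shRNA-labelled replicate 1 met at 0.0156%. Summed levels were 137 ± 9.06 CPM in controls and 168 ± 15.7 CPM in the other libraries (SD, n = 2 each), a ratio of 1.22. Without *EbpIII* the ratio was 0.985, a sum that keeps the lower *Ebp*. Without all Ebp genes the ratio was 1.12.

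The classes differed in how their sums were placed. The 3 Ebp genes summed to 64.1 ± 3.52 CPM in controls and 86.0 ± 22.5 CPM in shRNA-labelled libraries, a ratio of 1.34. The 13 Acp genes summed to 59.1 ± 4.64 and 65.1 ± 5.32 CPM, a ratio of 1.10. The 18 Sfp genes summed to 13.8 ± 0.904 and 16.2 ± 1.63 CPM, a ratio of 1.18. For the 29 genes that did not pass the filter the sums were 3.89 ± 1.41 and 7.21 ± 1.43 CPM, a ratio of 1.85 on 9 and 21 counts in controls against 41 and 30 counts in the other libraries. The exact interval of their share was 0.000124 to 0.000517% of counts in control replicate 1 and 0.000304 to 0.000751% in control replicate 2. In the shRNA-labelled libraries it was 0.000471 to 0.00089% and 0.000548 to 0.00116%. Control replicate 1 lay wholly below shRNA-labelled replicate 2, and the other pairs across genotypes overlapped.

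**Figure D2:**
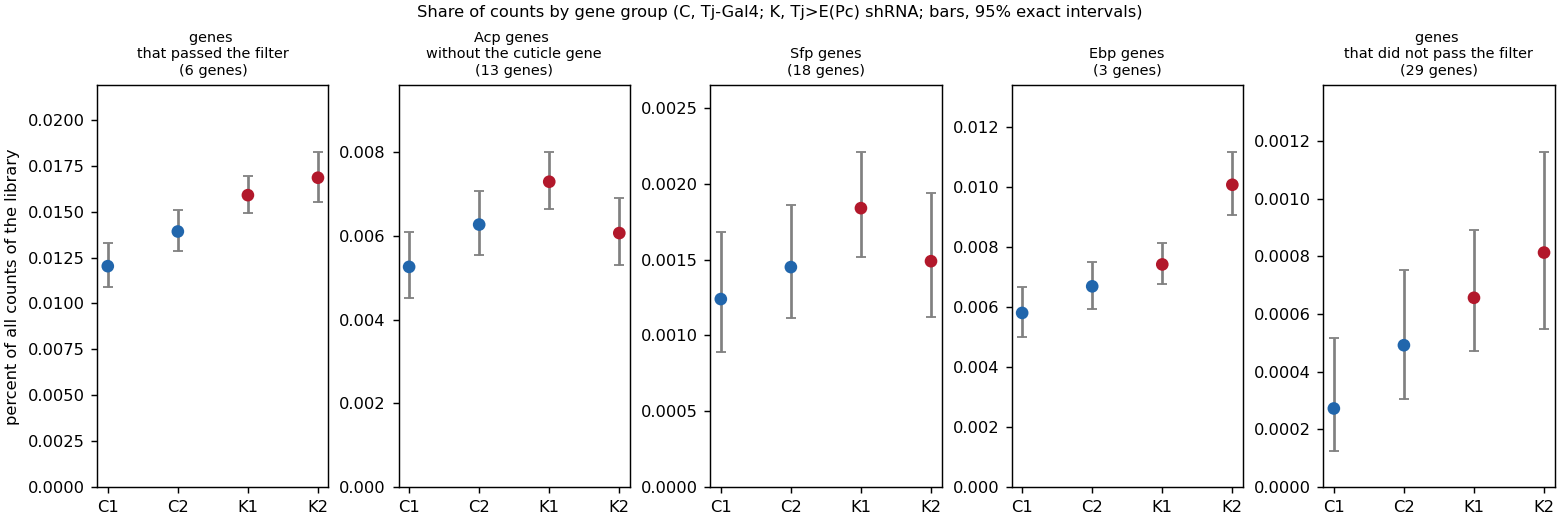
Percent of all counts of each library (vertical axes, each starting at 0 with its own scale) held by 5 groups of genes, with 95% exact binomial intervals that cover counting error only. C1 and C2 are the *Tj-Gal4* libraries and K1 and K2 the shRNA-labelled libraries. The summed share of the Ebp genes is highest in K2, at 0.0101%, and those of the Acp and Sfp genes in K1.

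Of the 6 genes tested, 1 was called higher and 1 lower in shRNA-labelled libraries, and 4 were not called. A call here is a Benjamini-Hochberg adjusted p under 0.05 over all 11163 genes tested in edgeR's quasi-likelihood test. By that rule 22.5% of all genes were called higher and 11.4% lower, or 33.9% in either direction, so 2 calls among 6 genes are close to the share over all genes. In 3 of the 6 genes the shRNA-labelled libraries both exceeded both controls, against 38.9% of all genes tested, and in 2 of the 6 both were below, against 33.8%. The median log2 fold change was -0.05 over the 6 genes and 0.00 over all genes. Both calls were Ebp genes, and they went in opposite directions.

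The Ebp genes are named after the ejaculatory bulb. *Ebp* (FBgn0004181) encodes the main protein of the posterior mating plug. *EbpII* (FBgn0011694) encodes another bulb protein of the plug, and *EbpIII* (FBgn0011695) encodes a small secreted protein of the insect chemosensory family. All lie on chromosome arm 2R, where *EbpII* and *Ebp* are next to each other and next to *Sfp60F* in the RefSeq annotation.

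*EbpIII* had the most counts of the group, with 154 and 210 in the controls and 430 and 354 in the shRNA-labelled libraries. Its levels were 49.4 and 48.9 CPM in the controls and 65.0 and 97.0 CPM in the other libraries. The controls were nearly equal, both other libraries lay above them, and these were far apart, with replicate 2 the highest. The means were 49.1 ± 0.370 and 81.0 ± 22.6 CPM (SD, n = 2 each), a ratio of 1.65. The log2 fold change was 0.70 (SE 0.187, 95% interval 0.29 to 1.12, edgeR adjusted p = 0.0174), and *EbpIII* was called higher. Per length it was also the highest of the 6 genes, with 77.3, 76.3, 99.6 and 153 cRPKM, the authors' length-scaled values, and 87.1% of the 11773 genes with cRPKM had a lower mean.

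The call of *EbpIII* did not hold under every setting. DESeq2 gave a log2 fold change of 0.67 with an adjusted p of 0.0623, and called 13.0% of all genes higher and 6.49% lower. Without control replicate 1 the edgeR adjusted p was 0.0741, and without control replicate 2 it was 0.0551. The log2 fold change was 0.98 without shRNA-labelled replicate 1 and 0.40 without its replicate 2, the library with the highest level. Its 598 bases of merged exon held 0.258, 0.351, 0.719 and 0.592 counts per base, and the highest value of any gene in any library was 0.965 counts per base, close to 1 count at each position. With each count read as an occupied position and converted to reads, the log2 fold change was 1.12 (edgeR adjusted p = 0.000445).

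*Ebp* went the other way. Its counts were 38 and 76 in the controls and 34 and 15 in the shRNA-labelled libraries. After scaling, the levels were 12.2 and 17.7 CPM in the controls and 5.14 and 4.11 CPM in the other libraries, so that the groups were well apart. The means were 14.9 ± 3.89 and 4.62 ± 0.726 CPM (SD, n = 2 each), and the control mean was 3.23 times the other. The log2 fold change was -1.67 (SE 0.332, 95% interval -2.41 to -0.94, edgeR adjusted p = 0.00441), and *Ebp* was called lower. Without control replicate 2, the library with the highest level, it was -1.37 with an adjusted p of 0.0548. Per length *Ebp* was the lowest of the 6 genes in mean, at 8.68, 12.7, 3.70 and 2.91 cRPKM.

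*EbpII* was at 0 in both controls and in shRNA-labelled replicate 1, and had 3 counts in replicate 2. Its neighbour *Sfp60F* had the same counts in the same libraries, 0, 0, 0 and 3. *Ebp*, the gene next to *EbpII*, was lowest in that same library. The genes named after the bulb thus did not move as 1 set. *EbpIII* was above both controls, *Ebp* was below them and *EbpII* was at the limit of detection. Their levels per length also differed. With controls first, *EbpIII* stood at 77.3, 76.3, 99.6 and 153 cRPKM, against 8.68, 12.7, 3.70 and 2.91 cRPKM for *Ebp*. The tissue from which the *EbpIII* transcripts came was not tested, so its higher level is not read here as more bulb RNA.

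**Figure D3:**
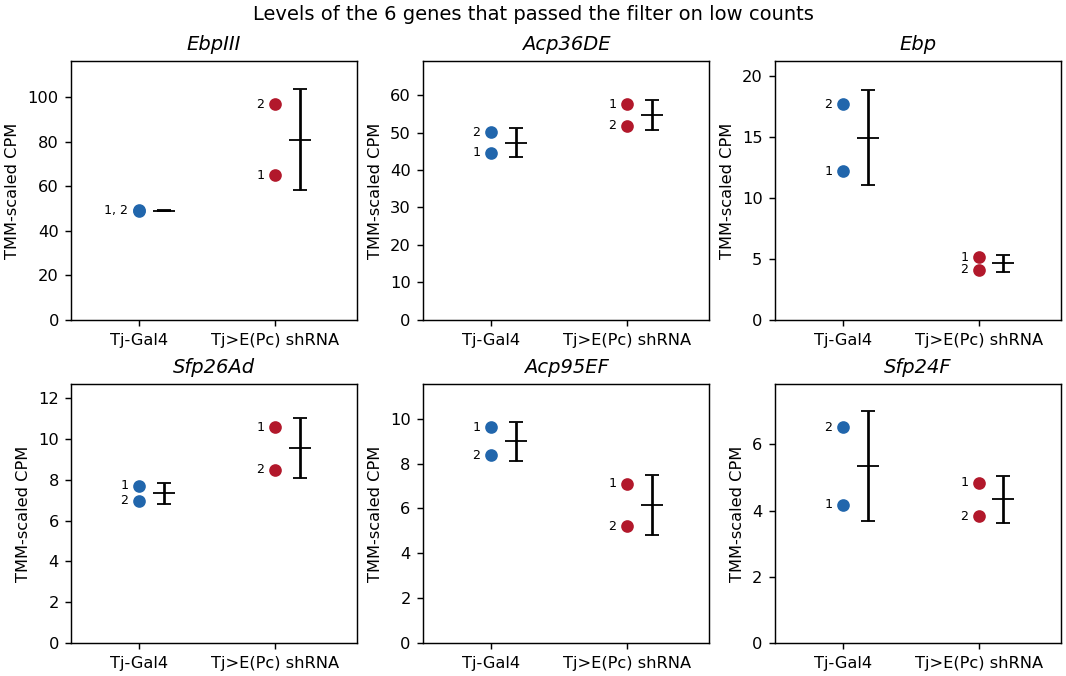
Level in TMM-scaled CPM (vertical axes from 0) of the 6 genes that passed the filter, in each library (points, numbered by replicate) with the mean and SD beside them (n = 2 per genotype). *EbpIII* lies at 65.0 and 97.0 CPM in the shRNA-labelled libraries against 49.4 and 48.9 CPM in controls, *Ebp* at 5.14 and 4.11 against 12.2 and 17.7 CPM, and the *Sfp24F* groups overlap.

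Among the Acp genes, *Acp36DE* (FBgn0011559, chromosome arm 2L) and *Acp95EF* (FBgn0002863, arm 3R) passed the filter. *Acp36DE* encodes a glycoprotein of the accessory gland that is needed for sperm storage in the mated female. Its counts were 139 and 215 in the controls and 381 and 189 in the shRNA-labelled libraries, or 44.6, 50.0, 57.6 and 51.8 CPM. Both of the latter libraries lay above both controls, by a small margin. The means were 47.3 ± 3.85 and 54.7 ± 4.09 CPM, and the log2 fold change of 0.21 (SE 0.142, 95% interval -0.10 to 0.53, edgeR adjusted p = 0.253) was not called. *Acp36DE* stood at 14.7, 16.5, 18.9 and 17.1 cRPKM, a mean above that of 41.8% of genes.

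*Acp95EF* had 30 and 36 counts in the controls and 47 and 19 in the shRNA-labelled libraries. Its levels were 9.62 and 8.38 CPM in the controls and 7.10 and 5.21 CPM in the other libraries, so the groups did not overlap. The log2 fold change was -0.51 (SE 0.331, 95% interval -1.25 to 0.23, edgeR adjusted p = 0.238), which was not called. limma on the log2(cRPKM + 1) scale did call it, with a log2 fold change of -0.53 and an adjusted p of 0.00848. By that test 23.9% of all genes were called higher and 11.5% lower. Its cRPKM values were 37.0, 32.0, 27.9 and 19.9, which placed it after *EbpIII* in mean level per length.

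Both of these Acp genes lie inside the span of another gene, and the counting was not stated to use strand. *Acp36DE* lies in the span of *Fas3*, which encodes the adhesion molecule Fasciclin 3, a marker of the hub cells at the tip of the testis. *Acp95EF* lies in that of *Spase22-23*, which encodes a subunit of the signal peptidase. In all, the spans of 11 of the 35 genes overlap another gene and 9 lie wholly inside one. *Acp36DE* held 0.0489, 0.0756, 0.134 and 0.0665 counts per base of merged exon against 0.0328, 0.0537, 0.0725 and 0.0403 for *Fas3*, and was higher in every library. *Acp95EF* held 0.123, 0.148, 0.193 and 0.0782 counts per base against 0.206, 0.277, 0.368 and 0.251 for *Spase22-23*, and was lower in every library.

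Neither host gene was called. *Fas3* had 189, 309, 417 and 232 counts with a log2 fold change of -0.07 (edgeR adjusted p = 0.697), and *Spase22-23* had 348, 468, 622 and 424 counts with a log2 fold change of -0.08 (edgeR adjusted p = 0.70). Without strand, reads of a host gene and of the gene nested in it cannot be told apart where the exons overlap, and the part of the host transcripts in these values was not tested. Without *Acp36DE* and *Acp95EF* the summed CPM of the other 33 genes gave a ratio of 1.32, in place of 1.22 with them.

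**Figure D4:**
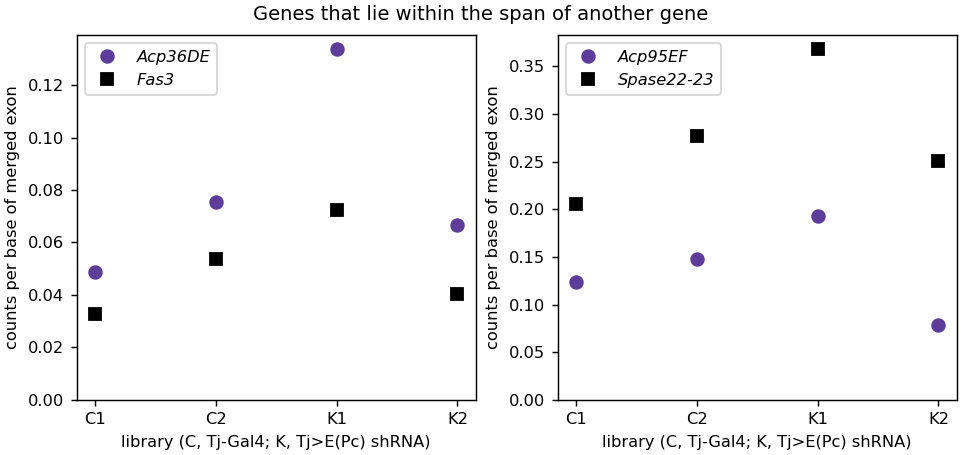
Counts per base of merged exon (vertical axes from 0) of *Acp36DE* with *Fas3* and of *Acp95EF* with *Spase22-23*, the genes whose spans hold them, in each library (C1 and C2, *Tj-Gal4*, then K1 and K2, labelled *Tj>E(Pc) shRNA*). *Acp36DE* lies above *Fas3* in all 4 libraries and *Acp95EF* below *Spase22-23* in all 4.

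The Sfp genes that passed were *Sfp26Ad* (FBgn0261055) and *Sfp24F* (FBgn0259958), both on arm 2L and overlapping no other gene. *Sfp26Ad* had 24 and 30 counts in the controls and 70 and 31 in the shRNA-labelled libraries, or 7.70, 6.98, 10.6 and 8.49 CPM. Both of the latter libraries were above both controls. The means were 7.34 ± 0.506 and 9.53 ± 1.47 CPM and the log2 fold change of 0.40 (SE 0.313, 95% interval -0.30 to 1.10, edgeR adjusted p = 0.323) was not called. *Gpdh1*, next to *Sfp26Ad* in the RefSeq annotation, had 221, 301, 573 and 368 counts. Its log2 fold change was 0.41 (edgeR adjusted p = 0.0435), and it was called higher, as were 22.5% of all genes tested. The part of this neighbour in the values of *Sfp26Ad* was not tested. *Sfp24F* had 13, 28, 32 and 14 counts, or 4.17, 6.52, 4.83 and 3.84 CPM. Its groups overlapped, with the control libraries farther apart than the means of the genotypes, and its log2 fold change of -0.30 (SE 0.387, 95% interval -1.16 to 0.56, edgeR adjusted p = 0.554) was not called. For the 4 genes without a call, the intervals still hold differences of 1 log2 unit or more for *Sfp26Ad*, *Sfp24F* and *Acp95EF*. That of *Acp36DE* is narrower.

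Of the 29 genes that did not pass the filter, 4 reached 4 counts in a library. *Acp54A1* (FBgn0083936) had 0 and 1 counts in the controls and 6 and 5 in the shRNA-labelled libraries. Both of the latter libraries were above both controls, and the ratio of summed counts per library depth was 7.94, with an exact 95% interval from 1.15 to 342 that covers counting error only. Tested by edgeR with no filter on low counts, its adjusted p was 0.118. *Acp29AB* (FBgn0015583), which encodes a lectin with a role in sperm storage, had 2, 5, 9 and 3 counts. *Acp26Aa* (FBgn0002855) encodes ovulin, which stimulates ovulation in the mated female, and had 0, 4, 3 and 3 counts. *Acp63F* (FBgn0015585) had 0, 2, 4 and 0 counts. For these last genes the groups overlapped, and the edgeR adjusted p without the filter was 0.839, 0.943 and 0.856.

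The other 25 genes had at most 3 counts in every library. *Sfp23F*, *Sfp24Bc*, *Sfp33A3* and *Sfp93F* were at 0 in all 4 libraries and are named because of that count. The remaining 21 had between 1 and 3 counts in their highest library. Over the 29 genes that did not pass, 12 were at 0 in both controls with at least 1 count in a library labelled *Tj>E(Pc) shRNA*, and 2 were at 0 in both of those with at least 1 count in a control. Among all 3093 genes that did not pass the filter the corresponding counts were 550 (17.8%) and 223 (7.21%), against 41.4% and 6.90% of the 29. The shRNA-labelled libraries held 9942640 counts together and the controls 7581675, and the part of this depth in the split was not tested. *Acp1*, the cuticle gene, had 0, 0, 0 and 1 counts. *Acp62F*, which encodes a protease inhibitor, had 0, 1, 0 and 0 counts and *Acp76A*, which encodes a serpin, had 1, 0, 2 and 0. These 3 were picked for their known roles after their values were seen. No further gene of the 35 was called when the filter was removed.

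The 35 genes share features that the naming rule did not use. Their merged exons had a median length of 486 bases (131 to 2843), against 1622 for all genes of the table. By chromosome arm, 16 (45.7%) lie on 2L, 9 (25.7%) on 2R, 5 (14.3%) on 3L and 5 (14.3%) on 3R, and none on X, where 15.3% of all genes lie. At a given number of transcripts a shorter gene receives fewer counts. The detection of a gene of this length is therefore less sensitive than that of a gene of median length.

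Other genes of the same tissues were read from a list of 33 seminal fluid genes outside the naming rule, of which 30 had a row and 9 were tested. Of these 9, 2 were called higher and 1 lower, against 22.5% and 11.4% of all genes tested. The count called higher was 0 without control replicate 1 or without shRNA-labelled replicate 1, 1 without control replicate 2 and 3 without shRNA-labelled replicate 2. The count called lower was 2 without shRNA-labelled replicate 1, and 4 with limma on either cRPKM scale. The 9 genes had a median log2 fold change of 0.09, and 13 of the 30 had at most 3 counts in every library. *SP*, which encodes the sex peptide that switches the behaviour of mated females, had 0, 1, 2 and 0 counts. *Dup99B*, which encodes a related peptide of the ejaculatory duct, had 0, 1, 20 and 4 counts, a ratio of 17.3 by depth with an exact 95% interval from 2.83 to 713. It did not pass the filter, and its adjusted p in edgeR without the filter was 0.00905. That fit also called *Obp56e*, a gene of the odorant-binding protein family, in the opposite direction, with 1, 12, 1 and 1 counts and an adjusted p of 0.042. *Obp56e* is named because of that call, and its counts were high in 1 control alone.

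The genes of this list that were called higher are both known from the ejaculatory duct. *Est-6*, which encodes an esterase transferred in the ejaculate, had 10 and 38 counts in the controls and 148 and 43 in the shRNA-labelled libraries, with means of 6.02 ± 3.98 and 17.1 ± 7.48 CPM (log2 fold change 1.47, SE 0.438, edgeR adjusted p = 0.0272). Its level was 3.21, 8.84, 22.4 and 11.8 CPM, so shRNA-labelled replicate 1 was the highest. Without that library the log2 fold change was 0.89 (edgeR adjusted p = 0.0545), without control replicate 1 it was 0.96 (edgeR adjusted p = 0.147), and without control replicate 2 it was 2.44 (edgeR adjusted p = 0.00251). *Gld*, which encodes a glucose dehydrogenase, had 28, 57, 149 and 61 counts, with 11.1 ± 3.03 and 19.6 ± 4.10 CPM (log2 fold change 0.81, SE 0.283, edgeR adjusted p = 0.0487), and lost its call under 8 of 15 alternatives. *hdly* was called lower, with 177, 301, 246 and 126 counts, 63.4 ± 9.39 and 35.8 ± 1.87 CPM (log2 fold change -0.82, SE 0.153, edgeR adjusted p = 0.00308), and kept its call under all 15 alternatives tried for it.

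The 4 ejaculatory duct genes of that list (*Est-6*, *Gld*, *Dup99B* and *Anp*, which encodes the antibacterial peptide andropin) summed to 12.2 and 22.8 CPM in the controls and 49.0 and 31.0 CPM in the shRNA-labelled libraries. The highest library, shRNA-labelled replicate 1, was not the library where *EbpIII* and the sum of the Ebp genes were highest, which was replicate 2. *Acp36DE* and *Sfp26Ad* were also highest in shRNA-labelled replicate 1. By contrast, *Acp95EF* was highest in control replicate 1, and *Sfp24F* and *Ebp* were highest in control replicate 2.

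**Figure D5:**
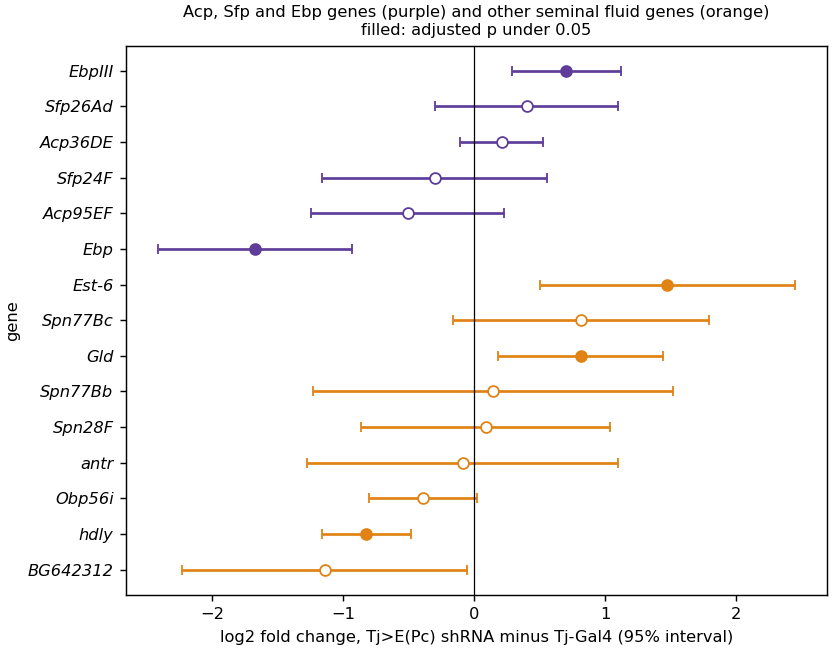
Log2 fold change (shRNA-labelled libraries minus *Tj-Gal4*, horizontal axis) with 95% intervals for the 6 tested Acp, Sfp and Ebp genes (purple) and the 9 tested other seminal fluid genes (orange). Filled points have an edgeR adjusted p under 0.05: *EbpIII*, *Est-6* and *Gld* above 0, *Ebp* and *hdly* below it.

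Of 4 genes on a fixed list for the accessory gland, 3 were tested. *prd*, which encodes a transcription factor needed for the development of the gland, was called lower. It had 254, 370, 458 and 199 counts, with 83.8 ± 3.28 CPM in controls and 61.9 ± 10.4 CPM in the other libraries (log2 fold change -0.43, SE 0.148, edgeR adjusted p = 0.0482). *Rab19* (log2 fold change -0.30, edgeR adjusted p = 0.0913) and *Abd-B* (0.24, edgeR adjusted p = 0.389) were not called. The 4 genes summed to 193 and 200 CPM in the controls and 171 and 152 CPM in the other libraries. The part of gland cells in these levels was not tested. Over all genes tested, 22.5% were called higher and 11.4% lower.

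Markers of other tissues that a dissected testis can carry were read beside these values. The muscle sheath list of 9 genes summed to 1591, 1605, 1612 and 1264 CPM, with 1 gene called lower, *Act57B*, which encodes an actin of muscle (log2 fold change -0.53, edgeR adjusted p = 0.0133). The fat body list summed to 141, 175, 180 and 134 CPM, with 1 of 3 tested genes called higher, *Lsp2*, which encodes a larval serum protein (log2 fold change 0.98, edgeR adjusted p = 0.0363). The hemocyte list summed to 157, 241, 262 and 92.0 CPM with none of 4 called. Beside these calls stand 22.5% of all genes tested called higher and 11.4% lower. The 4 adult cuticle genes with a row had at most 3 counts in every library and summed to 0.641, 0.233, 0.453 and 0.548 CPM. For these lists, unlike the sum of the 35 genes, the shRNA-labelled libraries did not both lie above both controls. The part of such tissues in the levels of seminal fluid and gland genes was not tested.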

How the data were processed

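RNA-seq of 4 whole-testis libraries was used, 2 per genotype, grouped by the sample labels. The 4 ChIP-seq samples of the series are not analysed here. The authors aligned reads with Bowtie 0.12.7 to dm3, allowing 2 mismatches and 1 alignment site, and deposited counts per gene over merged exons of FlyBase models, not normalized. By the study's methods a read over overlapping genes counted 0.5 for each, yet the values are whole, so counts of overlapping genes are uncertain. Removal of duplicate reads is not given in the sources used here for these libraries. A table of RPKM values (cRPKM), which the authors computed from edgeR pseudo-counts, transcript length and a common library size, covers 11773 genes.

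Symbols were matched by FBgn identifier (13564 of 14256 genes). Neighbours and overlaps came from RefSeq gene spans, whose assembly differs from dm3, so no coordinates are given. Counts were tested with edgeR 4.0.16 under R 4.3.3 (low counts removed with filterByExpr on genotype, TMM factors, quasi-likelihood F test, Benjamini-Hochberg adjustment over 11163 genes, calls at an adjusted p under 0.05). Standard errors are the log2 fold change divided by the square root of F. Shares carry 95% exact Clopper-Pearson intervals and low counts exact ratio intervals. These cover counting error only and no variation between dissections, and no molecular identifiers were used. Alternatives were DESeq2 1.42.0, upper-quartile or library-size scaling, edgeR's exact test, no filter, at least 10 counts in every library, a replicate block, limma 3.58.1 on log2(cRPKM + 1) or log2(cRPKM + 0.5) for genes averaging at least 1 cRPKM, counts converted to reads with occupancy limited to 0.98, an adjusted p under 0.01, and each library left out in turn. The fits were tested on simulated data.

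The genes and lists were chosen with earlier results of these data known. Named are all Acp, Sfp and Ebp genes that passed the filter, all Ebp genes, the others with at least 4 counts in a library, *SP*, *Dup99B*, and list genes past the test, at most 3 a list with the highest mean CPM. Other genes are named beside them with the reason or as members of a fixed list. Testis germline and cyst lineage lists were also read: 3 higher and 1 lower of 8 tested germline genes, and 1 higher and 1 lower of 5 tested cyst lineage genes, whose summed level was 232, 260, 268 and 194 CPM. The shares over all genes tested were 22.5% higher and 11.4% lower.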

Additional observations from a re-analysis of the deposited data

How the results depend on the processing

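The count of 1 gene called higher (*EbpIII*) was 0 with DESeq2 and at an adjusted p under 0.01, and between 0 and 1 with each library left out in turn. It was 0 without either control. The count of 1 gene called lower (*Ebp*) was 2 with limma on either cRPKM scale, which added *Acp95EF*, and between 0 and 1 with each library left out, being 0 without control replicate 2. Both counts were 1 under every other alternative run. *Sfp24F*, not called in edgeR, had log2 fold changes from -0.584 to 0.083 with each library left out, and the sign turned without control replicate 2. *EbpIII* stayed above 0 (0.40 to 1.12) and *Ebp* below it (-1.93 to -1.37) under all 15 alternatives. The ratio of summed levels, 1.22, was 1.12 without the Ebp genes, 0.985 without *EbpIII*, and 1.85 over the genes that did not pass the filter alone, a set added after the data were seen. With each library left out it ran from 1.14 to 1.30. Cause was not tested for any of these shifts. With the replicate number as a block, *EbpIII* had a log2 fold change of 0.70 (edgeR adjusted p = 0.00697) and *Ebp* -1.64 (edgeR adjusted p = 0.00525), and of *EbpIII*, *Ebp*, *Est-6*, *Gld* and *hdly* only *Gld* lost its call (edgeR adjusted p = 0.0765). The numbers are not known to pair libraries: same-numbered differences correlated at -0.27 over 11163 genes. The crossed block, added after the data were seen, also called 1 gene higher and 1 lower. Depth limits the 29 genes with few counts. Those with at least 1 count were tested only in the fit with no filter. Of single genes among them, a counting interval is given for *Acp54A1* alone.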
